A study of Mus musculus with 69 samples.

Results

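The genes described here are 38 immediate early response genes, chosen by name and found as 1 row each in all 4 TPM tables of the series, which share 52404 gene identifiers. TPM is a length-scaled transcript abundance that sums to the same total in every library. The tubules came from kidneys of male wild-type C57BL/6 mice, 7 weeks old, and were microdissected: proximal tubules of the S1 segment (PT-S1) or ducts of the cortical collecting system (CCD). Each mouse had a sham operation or unilateral nephrectomy (UNx), in which a kidney is cut out, and tubules were sampled 24 h or 72 h later. PT-S1 at 24 h had 8 libraries of 3 sham animals and 9 libraries of 4 UNx animals. PT-S1 at 72 h had 12 libraries of 5 animals in each group. CCD at 24 h had 8 libraries of 4 sham animals and 7 libraries of 3 UNx animals. CCD at 72 h had 7 libraries of 4 sham animals and 6 libraries of 4 UNx animals. No unoperated mice are among these groups, so every animal had undergone surgery.

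Immediate early genes are switched on within minutes of a stimulus without new protein synthesis. Growth factors, calcium, stress and injury signal through ERK and stress kinases to factors already bound at their promoters, such as SRF with its ETS partners and CREB. Many of the products are transcription factors (the AP-1 subunits Fos and Jun, the EGR, NR4A and KLF families), and others end the response: ZFP36 proteins promote decay of the mRNAs, DUSP phosphatases inactivate the kinases, and SOCS3 and ERRFI1 restrain cytokine and EGF receptors. In the kidney they are known for strong induction after injury, and also after handling or dissociation of tissue.

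The markers of the labelled segments were present. All 5 proximal S1/S2 markers (such as Slc34a1 and Lrp2) had a mean TPM of at least 1 in each PT-S1 group, and all 5 principal cell markers (such as Aqp2) and all 5 intercalated cell markers did so in each CCD group. The summed proximal S1/S2 markers were 6132 to 14679 TPM per animal in PT-S1 and 0.91 to 67.2 TPM in CCD. Of the 69 libraries, 5 had a median correlation under 0.92 with the others of their table: 2 sham libraries in PT-S1 at 24 h, 2 UNx libraries in PT-S1 at 72 h and 1 sham library in CCD at 72 h. Library depth is not known from TPM. The animal was the unit of every test, and nothing in the labels says whether PT-S1 and CCD came from the same animals. In such bulk samples, fewer cells of a type and less RNA per cell cannot be told apart.

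In sham animals, most of these genes stood far higher in CCD than in PT-S1. Fos, the AP-1 subunit that gives the response its best known readout, averaged 2629 TPM in CCD and 7.46 TPM in PT-S1 at 24 h, and 3822 against 13.5 TPM at 72 h. It ranked 27 among all genes of the sham CCD at 24 h and 16 at 72 h. Egr1, a zinc finger factor induced by ERK, averaged 1382 TPM in CCD and 2.26 TPM in PT-S1 at 24 h. The orphan nuclear receptor Nr4a1 averaged 262 against 1.12 TPM, and the stress-induced factor Atf3 152 against 0.52 TPM. The 38 genes summed to 12667 TPM in CCD, or 1.27% of the total, and to 826 TPM in PT-S1, or 0.0826%, in sham animals at 24 h. At 72 h the sums were 16946 TPM (1.69%) and 923 TPM (0.0923%).

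Member by member, 36 of the 38 had a mean of at least 1 TPM in either sham group at 24 h. Every CCD animal lay above every PT-S1 animal for 33 of these 36 (91.7%), where 57.1% of the 14803 genes counted the same way did so. The CCD mean was at least 10 times the PT-S1 mean for 22 of 36 (61.1%), against 12.4% of all genes. At 72 h, 29 of 35 lay wholly above (82.9%, with 57.1% of 14554 genes), and 22 of 35 reached 10 times (62.9%, with 12.1% of genes). Of the members counted, 9 at 24 h (Atf3, Egr2, Fosb, Fosl2, Gadd45b, Klf4, Maff, Nr4a2 and Socs3) and 6 at 72 h (Egr2, Fosb, Fosl2, Gadd45b, Maff and Nr4a2) reached 1 TPM only in CCD, so their mean had to be higher there. Over genes with a mean of at least 1 TPM in both segments, a limit chosen after seeing the data, all CCD animals lay above for 24 of 27 members at 24 h (88.9%, with 55.5% of 11135 genes) and for 23 of 29 at 72 h (79.3%, with 57.5% of 11147 genes). Within that limit, 15 of 27 reached 10 times at 24 h (55.6%, with 3.05% of genes) and 16 of 29 at 72 h (55.2%, with 3.44% of genes). The highest ratios at 24 h belonged to Gadd45b, a growth arrest and DNA damage gene, at 802 times, and to Egr1 at 613 times. Gadd45b stood at 0.33 TPM in PT-S1, so its ratio rests on a value close to 0. The median difference on the log2(TPM + 1) scale over genes reaching 1 TPM in both segments was 3.39 for the members and 0.63 for all genes at 24 h, and 3.26 and 0.73 at 72 h. The segments were normalized in separate tables, so these are levels side by side and were not tested.

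Errfi1 and Dusp6, which restrain receptor and kinase signalling, stood the other way. Errfi1, the feedback inhibitor of the EGF receptor, was the highest member in PT-S1 at 381 TPM and stood at 45.8 TPM in CCD at 24 h, with all CCD animals below all PT-S1 animals, as in 15.4% of genes. At 72 h it averaged 424 TPM in PT-S1 and 34.4 TPM in CCD. Dusp6, the phosphatase that acts on ERK, averaged 59.2 TPM in PT-S1 and 22.2 TPM in CCD at 24 h, with overlap, and 42.0 against 10.8 TPM at 72 h, without overlap (12.6% of genes lay that way at 72 h). Dusp1, a phosphatase of stress kinases, averaged 72.5 TPM in PT-S1 and 206 TPM in CCD at 24 h, without overlap, and 95.3 against 137 TPM at 72 h, with overlap. Klf2, a factor known from endothelium, overlapped between segments at both times.

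**Figure D1:**
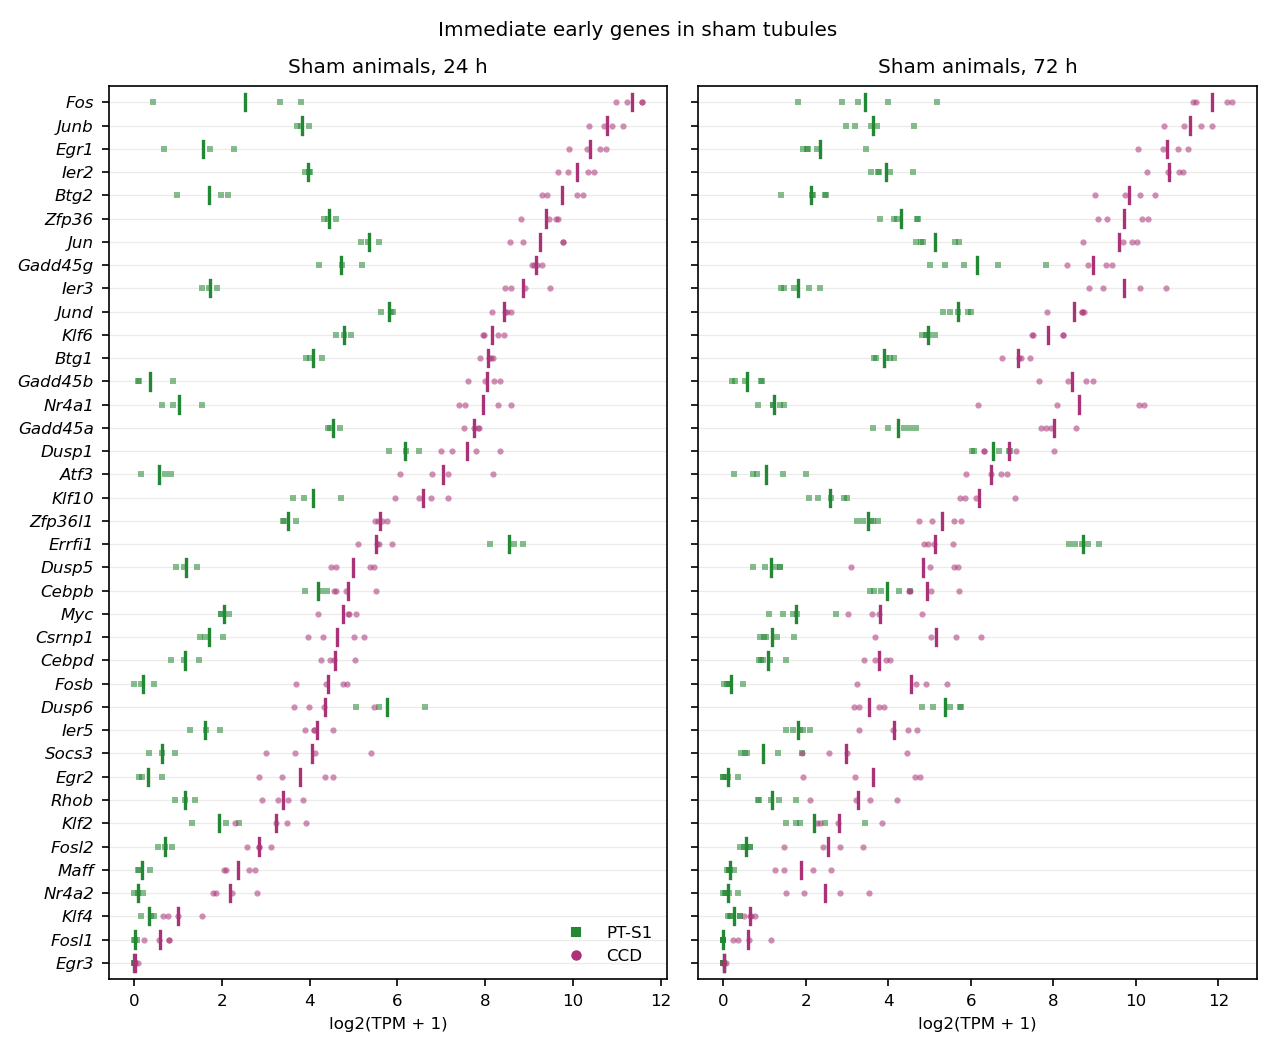
Level of each of the 38 members in sham animals as log2(TPM + 1), in PT-S1 (squares) and CCD (circles), at 24 h and 72 h; each point is an animal's mean and each bar a group mean. Fos and Junb lead in CCD at both times, while Errfi1 and Dusp6 are the members that stand higher in PT-S1.

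The RefSeq promoter table (build GRCm38.p6) held an entry for 31 of the 38 members, and the 250 bases before each listed start were searched on both strands. Those without an entry were Cebpd, Egr1, Egr3, Fosl1, Ier2, Klf10 and Myc. The CArG box, the SRF site, was found in 3 of 31 members (9.68%) and in 1.62% of the 27025 genes of the table. The CREB site TGACGTCA was found in 4 of 31 (12.9%) and in 1.77% of genes. The AP-1 site was searched as TGANTCA with any base at N, which is wider than its consensus with C or G at N. This pattern was found in 2 of 31 members (6.45%), Csrnp1 with G at N and Zfp36l1 with T, and in 7.82% of genes. These 3 motifs share no position in the stretches shown. The letters are a description of the window and not a measure of binding. The 5 stretches below come from members with 1 listed start that hold a motif. Btg2 and Dusp1 are shown for the CREB site, and Dusp5 and Zfp36 for the CArG box. Zfp36l1, the only member past the test threshold, is shown for the wider pattern, with T at N, and so holds no consensus AP-1 site there. Each stretch reads 5′ to 3′ on the gene's strand, with the motif in capitals.
Btg2 (chr1:134079289-134079346, minus strand): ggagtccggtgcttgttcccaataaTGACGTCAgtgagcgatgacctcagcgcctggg
Dusp1 (chr17:26508583-26508640, minus strand): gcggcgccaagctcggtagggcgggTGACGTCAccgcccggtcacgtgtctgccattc
Dusp5 (chr19:53529038-53529107, plus strand): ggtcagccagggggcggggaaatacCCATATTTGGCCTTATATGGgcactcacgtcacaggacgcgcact
Zfp36 (chr7:28379252-28379311, minus strand): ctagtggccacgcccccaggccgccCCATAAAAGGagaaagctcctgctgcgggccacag
Zfp36l1 (chr12:80113111-80113167, minus strand): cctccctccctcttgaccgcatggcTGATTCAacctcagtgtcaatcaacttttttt
The Dusp5 stretch holds 2 CArG boxes side by side, beginning 82 and 72 bases before the start, and the single box of Zfp36 begins 58 bases before it.

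After UNx, 1 member passed the threshold in 1 of the 4 comparisons: Zfp36l1 fell in CCD at 24 h. No member passed in the other 3, and none stood higher in UNx at an unadjusted p under 0.05 in any table (2.59% and 1.33% of all genes did in PT-S1 at 24 h and 72 h, and 5.55% and 4.66% in CCD). Tests covered members whose animals in a table averaged 1 TPM or more, which were 26 in each PT-S1 table and 35 in each CCD table. Those not tested in PT-S1 at 24 h had means between 0.0024 and 0.69 TPM (Fosb, Fosl1, Fosl2, Egr2, Egr3, Nr4a1, Nr4a2, Klf4, Atf3, Maff, Socs3 and Gadd45b). At 72 h the list was the same except that Cebpd took the place of Nr4a1. In CCD only Fosl1, Egr3 and Klf4 were below the minimum. All changes are UNx minus sham on the log2(TPM + 1) scale over animal means, with limma and Benjamini-Hochberg adjustment over all genes tested.

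**Figure D2:**
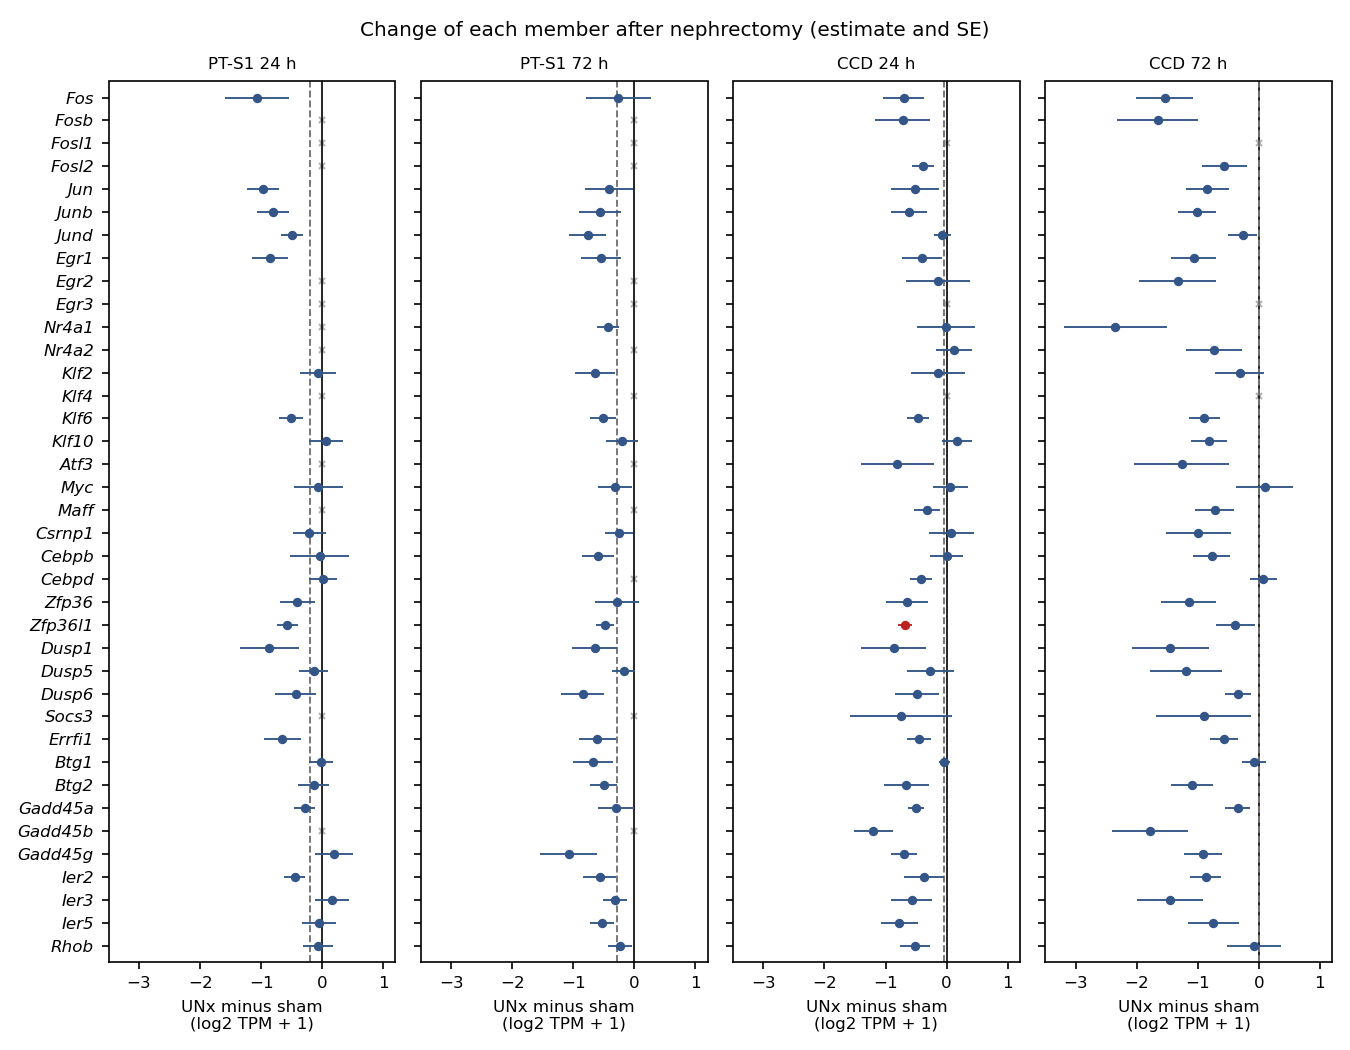
Change of each tested member (UNx minus sham, log2 of TPM + 1, point and SE) in the 4 comparisons, grouped by role; crosses mark members below the minimum level, the dashed line is the median of all genes, and the red point is Zfp36l1 in CCD at 24 h. Points in CCD at 72 h lie furthest left, down to -2.35 for Nr4a1, while that table's all-gene median is at 0.01.

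In CCD at 24 h, Zfp36l1 and the 3 Gadd45 genes were separated between groups, with every UNx animal below every sham animal. These were the only 4 of 35 members placed that way (11.4%, against 9.31% of 13775 genes), so this share was near that of all genes. By adjusted p, 1 of 35 members passed, where 0.987% of all genes did. Unadjusted p under 0.05 with a lower UNx value was met by 7 of 35 (20%), where 9.97% of genes met it. The change was below 0 for 30 of 35 (58.2% of genes), and the median change was -0.47 for members and -0.04 for all genes.

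Zfp36l1 encodes an RNA-binding protein that promotes decay of mRNAs with AU-rich elements. Its values in CCD at 24 h were 53.1, 45.9, 44.2 and 49.1 TPM in the sham animals and 26.7, 27.6 and 35.7 TPM in the UNx animals. The sham mean was 48.1 ± 3.9 TPM (SD, n = 4) and the UNx mean 30.0 ± 5.0 TPM (SD, n = 3). The change was -0.68 (SE 0.11, limma adjusted p = 0.0355). The highest UNx animal lay below the lowest sham animal. The call was lost on leaving out any of 6 of the 7 animals (adjusted p 0.0335 to 0.142 over the 7, change -0.81 to -0.61). All 5 principal cell markers were detected in both groups. Their sum overlapped between groups, at 15713 to 42730 TPM in sham and 39196 to 58909 TPM in UNx animals. Markers of the thick ascending limb, all 4 with a mean of at least 1 TPM in both groups, summed to 100 to 3506 TPM in sham and 85.5 to 201 TPM in UNx, and the highest value belonged to sham animal 2. The part of these markers in the result was not tested.

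Zfp36l1 was also lower in UNx tubules of PT-S1, below the threshold of the test. At 24 h it stood at 9.69, 9.54 and 11.9 TPM in sham and at 5.77, 6.49, 7.43 and 6.64 TPM in UNx animals (change -0.57, SE 0.18, adjusted p = 0.254). At 72 h it stood at 12.4, 8.42, 10.9, 9.44 and 11.4 TPM in sham and at 6.55, 6.92, 7.80, 7.55 and 7.32 TPM in UNx animals (change -0.48, SE 0.15, adjusted p = 0.237). The groups did not overlap at either time. All genes of PT-S1 shifted down as well, by a median of -0.19 at 24 h and -0.29 at 72 h, and relative to that median the changes of Zfp36l1 were -0.38 and -0.19. In CCD at 72 h the groups overlapped, with 25.9, 46.9, 53.1 and 32.5 TPM in sham and 29.8, 53.3, 21.2 and 20.4 TPM in UNx (change -0.39, SE 0.32, adjusted p = 0.888).

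The Gadd45 genes encode small proteins that bind stress kinases and cell cycle regulators. Gadd45b in CCD at 24 h was at 292, 255, 195 and 321 TPM in sham and at 121, 63.2 and 181 TPM in UNx animals (change -1.20, SE 0.31, adjusted p = 0.115). Gadd45a was at 213, 231, 184 and 226 TPM in sham and at 124, 154 and 180 TPM in UNx (change -0.49, SE 0.13, adjusted p = 0.118). Gadd45g was at 578, 632, 539 and 549 TPM in sham and at 376, 235 and 494 TPM in UNx (change -0.70, SE 0.21, adjusted p = 0.157). All 3 were non-overlapping, as were 9.31% of all genes with UNx below, and none of them passed the adjusted threshold.

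The AP-1, EGR and ATF genes of CCD at 24 h overlapped between the groups. Fos was at 2400, 3049, 2035 and 3031 TPM in sham and at 2064, 907 and 2365 TPM in UNx animals (change -0.70, SE 0.34, adjusted p = 0.367). Jun, its partner in AP-1, was at 465, 879, 376 and 880 TPM in sham and at 495, 250 and 637 TPM in UNx (change -0.52, SE 0.39, adjusted p = 0.568). In both genes UNx animal 2 was the lowest of all 7 animals. Egr1 was at 1275, 1568, 965 and 1722 TPM in sham and at 1256, 614 and 1517 TPM in UNx (change -0.41, SE 0.33, adjusted p = 0.599). Atf3 was at 110, 289, 66.1 and 142 TPM in sham and at 57.6, 33.5 and 184 TPM in UNx (change -0.81, SE 0.60, adjusted p = 0.564). UNx animal 2 was the lowest of its group for 27 of 35 members and UNx animal 3 the highest for 32 of 35. Among sham animals, animal 2 was the highest for 26 and animal 3, with 1 library, the lowest for 22. Such places were not counted over all genes. Without sham animal 2, the members' median was -0.34 (all genes -0.05) and 28 of 35 changes were below 0 (59.7% of genes). In that fit 4 members were lower at an unadjusted p under 0.05 (11.4%, with 9.7% of genes). Without UNx animal 2, the members' median was -0.18 (all genes -0.06) and 22 of 35 changes were below 0 (61.9% of genes). Without UNx animal 3 it was -0.65 (all genes -0.05), and 2 members passed, Zfp36l1 and Ier5, where 78 of 13760 genes did.

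In CCD at 72 h the values of most members were lower in UNx, and none passed the adjusted threshold. The members' median change was the furthest below 0 of the 4 tables, though no member's difference between times or segments passed a test. The change was below 0 for 33 of 35 (47.8% of 13770 genes), and 18 of 35 (51.4%) were lower at an unadjusted p under 0.05, where 2.82% of all genes were. By adjusted p, 0 of 35 passed, with 0.595% of genes. The median change was -0.87 for members and 0.01 for all genes. By role it was -1.20 for the 4 EGR and NR4A genes tested, -0.93 for the 6 AP-1 subunits and -0.91 for the 5 growth arrest and stress genes. It was -0.90 for the 5 signal-limiting factors, -0.81 for the 3 KLF genes and -0.81 for the 4 genes of the IER and Rhob group. The 2 mRNA decay factors had -0.77 and the 6 other transcription factors -0.75. No member was free of overlap between the groups (0 of 35, with 1.82% of genes lying below).

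Fos at 72 h was at 2664, 4706, 5118 and 2799 TPM in the sham CCD and at 1620, 2747, 479 and 1142 TPM in the UNx CCD (change -1.54, SE 0.47, adjusted p = 0.337). The single UNx value inside the sham range belonged to animal 2, which had 1 library. UNx animal 3 and sham animals 2 and 3 also had 1 library each. Junb, another AP-1 subunit, was at 1633, 3039, 3668 and 2316 TPM in sham and at 1410, 2086, 830 and 1014 TPM in UNx (change -1.02, SE 0.31, adjusted p = 0.345). Jun was at 418, 827, 1047 and 955 TPM in sham and at 475, 722, 257 and 365 TPM in UNx (change -0.84, SE 0.35, adjusted p = 0.604). For Jun, sham animal 1 lay below UNx animals 1 and 2.

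Klf6, a zinc finger factor, had the smallest p of the members in CCD at 72 h. It was at 180, 302, 301 and 177 TPM in sham and at 128, 190, 98.5 and 100.2 TPM in UNx animals (change -0.89, SE 0.25, adjusted p = 0.285). Ier2, a nuclear protein induced with Fos, was at 1230, 2103, 2267 and 1768 TPM in sham and at 1077, 1415, 648 and 920 TPM in UNx (change -0.87, SE 0.25, adjusted p = 0.294). Each of these 2 genes overlapped only through UNx animal 2.

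Egr1 in CCD at 72 h was at 1061, 2093, 2454 and 1626 TPM in sham and at 943, 1457, 426 and 727 TPM in UNx animals (change -1.07, SE 0.37, adjusted p = 0.466). Atf3 was at 58.1, 117, 105 and 89.1 TPM in sham and at 32.0, 196, 8.47 and 19.5 TPM in UNx (change -1.26, SE 0.78, adjusted p = 0.835). For Atf3 the highest of all 8 animals was UNx animal 2, and the other 3 UNx animals were below all sham animals. Libraries of a single animal also differed: the 3 libraries of sham animal 4 held 19.0, 226 and 22.1 TPM of Atf3 and 2157, 4038 and 2201 TPM of Fos. Nr4a1, named after its values were seen, had the largest change of any member in any table. It stood at 71.5, 1164, 1082 and 271 TPM in sham and at 84.8, 149, 34.9 and 66.7 TPM in UNx animals (change -2.35, SE 0.84, adjusted p = 0.501). Over the 8 fits that each left out 1 animal, the change of Nr4a1 was -3.19 to -1.81. Its adjusted p ran from 0.0733 (without sham animal 1) to 0.998 (without UNx animal 4).

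**Figure D3:**
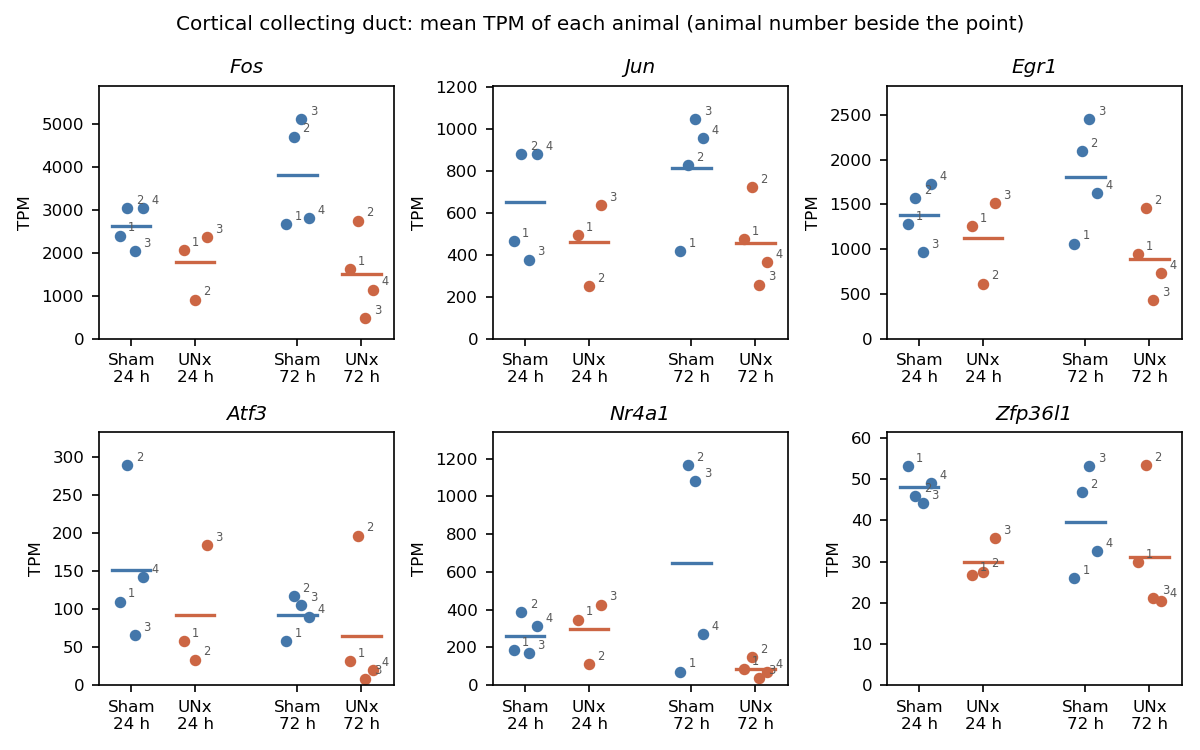
Mean TPM of each CCD animal for Fos, Jun, Egr1, Atf3, Nr4a1 and Zfp36l1 in sham (blue) and UNx (orange) groups at 24 h and 72 h; bars are group means and small digits are animal numbers. UNx animal 2 at 72 h lies above the other UNx animals in all 6 panels, and Zfp36l1 at 24 h is the panel whose groups do not overlap.

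Some animals took extreme places across the members, and such places were not counted over all genes. UNx animal 2 was the highest of its group for 33 of 35 members at 72 h, and sham animal 1, with a low-correlation library, was the lowest of its group for 23 of 35. Sham animal 3 was the highest of its group for 19 and UNx animal 3 the lowest of its group for 21, each from 1 library. Without UNx animal 2, all 35 changes were below 0 (48.1% of genes) and 24 were lower at an unadjusted p under 0.05 (3.12% of genes). Without sham animal 1, 25 of 35 were lower (8.12% of genes). Leaving out sham animal 2, sham animal 3 or UNx animal 4 left 9 each (2.04%, 2.46% and 1.28% of genes), and leaving out UNx animal 1 or UNx animal 3 left 10 each (2.75% and 1.58% of genes). No member passed the adjusted threshold in any of these. Principal cell markers summed to 15222 to 35977 TPM in sham and 15998 to 24524 TPM in UNx animals, and heat shock genes (8 of 8 with a mean of at least 1 TPM in both groups) to 1320 to 1803 TPM and 1110 to 1415 TPM. Their part in the result was not tested.

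In PT-S1 at 24 h Fos, Jun, Dusp1, Egr1 and Junb had the largest changes (-1.06 to -0.81), and no member passed. Fos and Egr1 stood at low levels there, and Egr1 met the minimum only through its sham animals (2.26 against 0.46 TPM). The change was below 0 for 22 of 26 members (70.9% of 11874 genes), with a median of -0.25 for members and -0.19 for all genes. By adjusted p, 0 of 26 passed, with 0% of genes. At an unadjusted p under 0.05, 7 of 26 were lower (26.9%), where 15.2% of genes were. All UNx animals lay below all sham animals for 5 of 26 (19.2%), where 19% of genes did, so this count matched the background. Over genes averaging at least 1 TPM in both groups, 6 of 25 members were lower at an unadjusted p under 0.05 (24%, with 15.2% of genes), and the medians were -0.21 and -0.19. With median-ratio scaling, 14 of 26 changes were below 0 (50.4% of genes) and the median was -0.08. Summed proximal S1/S2 markers were 11166 to 13790 TPM in sham and 7570 to 11244 TPM in UNx animals. The 4 thick ascending limb markers summed to 164 to 208 TPM and 199 to 281 TPM, nearly all of it Cldn10, with Slc12a1 at 0.25 and 0.33 TPM. The part of these markers in the result was not tested.

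Jun in PT-S1 at 24 h was at 35.2, 46.6 and 39.5 TPM in sham and at 15.7, 29.0, 13.6 and 24.2 TPM in UNx animals, without overlap (change -0.97, SE 0.26, adjusted p = 0.254). Junb was at 13.0, 12.0 and 14.8 TPM in sham and at 7.87, 4.73, 4.93 and 10.5 TPM in UNx, without overlap (change -0.81, SE 0.26, adjusted p = 0.254). Both were among the 5 separated genes. Fos was at 13.1, 0.35 and 8.96 TPM in sham and at 3.07, 0.24, 0.87 and 0.38 TPM in UNx (change -1.06, SE 0.52, adjusted p = 0.303). Egr1 was at 3.85, 0.61 and 2.30 TPM in sham and at 0.83, 0.30, 0.29 and 0.41 TPM in UNx (change -0.86, SE 0.29, adjusted p = 0.254). In Fos and Egr1, sham animal 2 lay inside the UNx range. Atf3 was below the minimum level, at 0.63, 0.13 and 0.81 TPM in sham and at 0.38, 0.16, 0.17 and 0.55 TPM in UNx.

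In PT-S1 at 72 h all 26 tested members had a change below 0, where 83% of 11886 genes did. The median was -0.51 for members and -0.29 for all genes. No member passed by adjusted p (0 of 26, with 0% of genes). At an unadjusted p under 0.05, 9 of 26 were lower (34.6%, with 19.1% of genes). Nr4a1, Csrnp1 and Rhob met the minimum only through their sham animals, and over genes averaging at least 1 TPM in both groups 8 of 23 were lower (34.8%, with 19% of genes). Zfp36l1, described above, was the only member without overlap (1 of 26, 3.85%, with 5.34% of genes). Without the 2 UNx libraries of low correlation, which came from UNx animals 1 and 2, the medians were -0.22 for 28 tested members and -0.02 for all genes, and 2 of 28 members (7.14%) were lower at an unadjusted p under 0.05, where 8.1% of genes were. With median-ratio scaling 21 of 25 changes were below 0 (47.6% of genes, median -0.22 for members and 0.02 for all genes), with quantile normalization 22 of 25 (57% of genes, median -0.22 and -0.05), and with arrayWeights 19 of 26 (59.3% of genes, median -0.24 and -0.06). Summed intercalated cell markers did not overlap between groups: 3.49 to 20.8 TPM in sham, where 4 of 5 averaged at least 1 TPM, and 1.86 to 2.78 TPM in UNx, where 1 of 5 did and Slc4a1 stood at 0.002 TPM. Heat shock genes summed to 1130 to 1461 TPM in sham and 863 to 1229 TPM in UNx animals. The part of these genes in the result was not tested.

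Ier5, which binds the heat shock factor HSF1, was at 2.80, 2.62, 3.28, 1.87 and 2.23 TPM in sham and at 1.02, 0.98, 1.98, 2.22 and 1.37 TPM in UNx at 72 h (change -0.53, SE 0.20, adjusted p = 0.237). Jund, an AP-1 subunit, was at 44.4, 39.2, 60.0, 50.3 and 63.0 TPM in sham and at 26.4, 19.8, 34.8, 45.9 and 44.3 TPM in UNx (change -0.77, SE 0.30, adjusted p = 0.237). Klf6 was at 29.2, 30.9, 34.1, 27.0 and 29.6 TPM in sham and at 19.3, 17.7, 28.0, 26.8 and 21.3 TPM in UNx (change -0.52, SE 0.21, adjusted p = 0.237). In these 3 genes, UNx animals 1 and 2 were the 2 lowest of the table. Fos was at 8.65, 6.29, 14.9, 2.51 and 34.9 TPM in sham and at 9.59, 8.12, 11.5, 2.73 and 0.87 TPM in UNx (change -0.27, SE 0.53, adjusted p = 0.754). Jun was at 24.5, 27.4, 51.1, 26.6 and 48.3 TPM in sham and at 14.7, 10.8, 28.0, 54.2 and 31.7 TPM in UNx (change -0.41, SE 0.39, adjusted p = 0.493). Sham and UNx animals were intermixed for both genes. Egr1 was at 3.17, 3.04, 3.79, 2.83 and 10.03 TPM in sham and at 0.75, 1.78, 4.01, 1.37 and 1.25 TPM in UNx (change -0.55, SE 0.33, adjusted p = 0.310). Atf3 was below the minimum level, at 0.19 to 2.99 TPM in sham and 0.27 to 1.08 TPM in UNx.

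**Figure D4:**
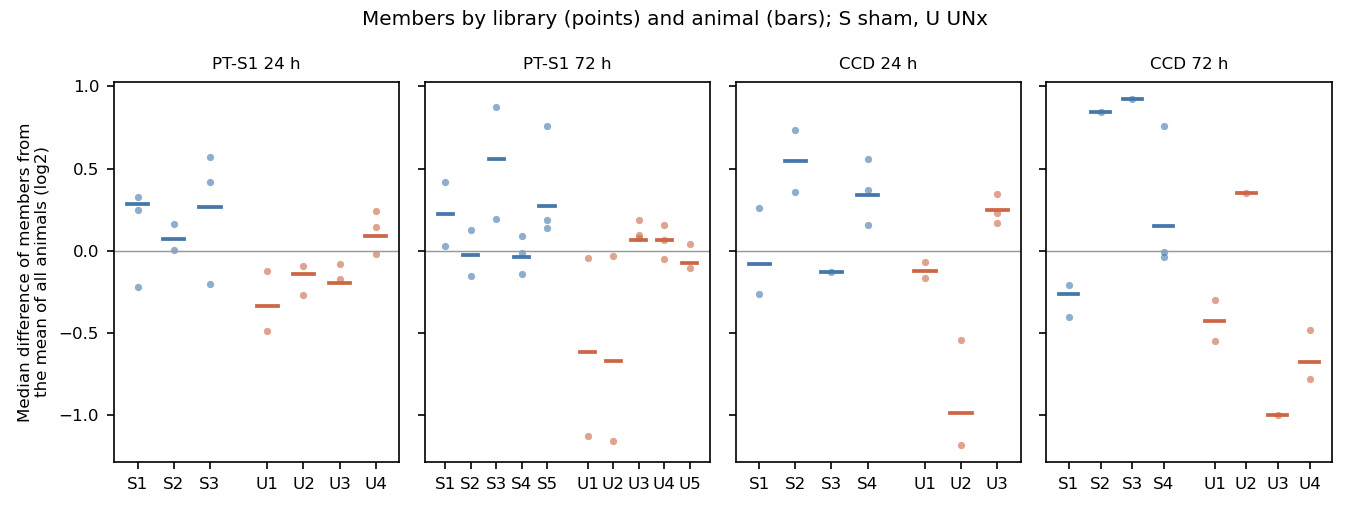
Median difference of the tested members from the mean over the animals of a table (log2), for each library (points) and animal (bars), with sham in blue and UNx in orange. In PT-S1 at 72 h UNx animals 1 and 2 are low through a single library each, while in CCD at 72 h UNx animal 2 stands at 0.35 and the other UNx animals between -0.996 and -0.424.

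The spread among libraries of an animal and among animals of a group differed between the segments. In CCD the SD among animals was larger than that among libraries for 31 of 35 members at 24 h and for 33 of 35 at 72 h, with medians of 0.54 and 0.66 among animals and 0.37 and 0.38 among libraries (log2 scale). In PT-S1 it was larger for 7 of 26 and 6 of 26, with medians of 0.41 and 0.51 among animals and 0.46 and 0.53 among libraries. An animal's value is a mean of 1 to 3 libraries, so with no difference between animals the SD among animals would tend to be the smaller. Fos illustrates the contrast: its SD among libraries of an animal was 1.47 (24 h) and 1.73 (72 h) for PT-S1, against 0.45 and 0.41 for CCD. Its sham means were 7.46 and 13.5 TPM in PT-S1 and 2629 and 3822 TPM in CCD. These spreads were computed only for the tested members, which are not the same set in the 2 segments. Whether all genes show the same contrast was not tested. The part of expression level and library quality in these spreads was not tested either.

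Whether the effect of UNx differed between times or between segments was tested as the difference of the effects. No member passed in any of the 4 tests. Between 24 h and 72 h, 0 of 25 members passed in PT-S1 (0% of genes) and 0 of 35 in CCD (0% of genes). Between PT-S1 and CCD, 0 of 26 passed at 24 h, where 0.137% of 10988 genes did, and 0 of 26 at 72 h (0% of genes). At an unadjusted p under 0.05 there were 0, 1, 1 and 1 members in that order, where 3.33%, 4.96%, 15.4% and 9.33% of genes reached it. The 3 genes, named after their values were seen, were Klf10 in CCD between the times (difference -0.99, SE 0.43, adjusted p = 0.968), Gadd45g between segments at 24 h (0.89, SE 0.41, adjusted p = 0.322) and Nr4a1 between segments at 72 h (1.91, SE 0.84, adjusted p = 0.495).

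A list of 65 related genes was set beside the members. It held 21 kinases, 12 factors that act on immediate early promoters and 32 further early response genes. Of the 21 kinases (ERK, p38 and JNK pathways with the EGF receptor and Ras), none passed in any table. Among 12 factors that act on immediate early promoters, Elk4, an ETS partner of SRF, fell in CCD at 24 h, from 15.3 ± 1.0 TPM (SD, n = 4) to 9.92 ± 0.90 TPM (SD, n = 3), a change of -0.59 (SE 0.11, limma adjusted p = 0.0459). The Elk4 call was lost on leaving out any of the 7 animals (adjusted p 0.0715 to 0.173) and was kept in 5 of 10 other settings (adjusted p 0.0175 to 0.180). None of the 32 further early response genes passed. At an unadjusted p under 0.05 the list held 11 lower and 0 higher of 53 in PT-S1 at 24 h (20.8% lower, with 15.2% of all genes) and 8 and 0 of 53 in PT-S1 at 72 h (15.1%, with 19.1% of genes), the latter share below that of all genes. In CCD it held 12 and 3 of 63 at 24 h (19% lower, with 9.97% of genes) and 6 and 0 of 62 at 72 h (9.7%, with 2.82% of genes). The 6 lower genes of CCD at 72 h were all further early response genes, led by the repressor Bhlhe40 (265 ± 108 to 121 ± 58 TPM, SD, n = 4 each, change -1.13, SE 0.37, adjusted p = 0.414) and the NF-kappa-B inhibitor Nfkbia (663 ± 318 to 269 ± 218 TPM, change -1.42, SE 0.48, adjusted p = 0.442). The kinases of that table had a median change of 0.03 and the further early response genes one of -0.34. In PT-S1 the smallest p belonged to Zfp36l2, a relative of Zfp36l1, and Klf9 at 24 h (changes -0.86 and -0.59, SE 0.22 and 0.20, adjusted p = 0.246 and 0.254). At 72 h it belonged to Ppp1r15a, which directs dephosphorylation of eIF2-alpha, and Atf2 (changes -0.75 and -0.72, SE 0.21 and 0.23, adjusted p = 0.237 for both).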

How the data were processed

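RNA-seq used polyA RNA and SMART-Seq V4 low-input cDNA synthesis, per the labels' protocols. The authors deposited 4 tables of TPM values per gene and library, made with STAR and RSEM 1.3.3 on GRCm39, per the submitters' processing notes. TPM sums to 1e+06 per library, so depth is not known and no counting interval is given. All 69 columns were used. For 47 the name matched a sample, and for 22 it gave the group and animal but not which library. Promoter sequences are RefSeq's, on GRCm38.p6.

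Libraries of an animal were averaged on log2(TPM + 1), a scale that understates changes of low genes. Genes averaging 1 TPM or more over animals were tested with limma 3.58.1 in R 4.3.3 (trend, moderated, two-sided, Benjamini-Hochberg over all genes, threshold 0.05), each table by itself, and differences of effects in a model of 4 groups. The test was run on simulated data in which each gene varied independently, so shifts shared by an animal's genes were not covered. p-values measure spread between the animals numbered in the labels.

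The members and lists were chosen with earlier results of these data known. Named genes were Fos, Jun, Egr1 and Atf3, members past the threshold, the 4 members of smallest p in each table, and from the related list those past the threshold or the 2 of smallest p. Alternatives were another pseudocount, other filters and scalings, log of mean TPM, a random animal effect, quality weights, a replicate block, leaving out low-correlation libraries, and leaving out each animal. A minimum of 1 TPM in both groups or segments was added after seeing the data.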

Additional observations from a re-analysis of the deposited data

Results flagged for a closer look

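Among 183 combinations of a member and a group of 4 or 5 animals, 4 had an animal set apart from the others of its group by more than Dixon's 95% limit (0.829 for 4 animals), and chance flags about 1 in 20. In PT-S1 at 24 h, UNx animal 2 held 4.70 TPM of Cebpb, an acute-phase factor, where the other 3 held 22.3 to 28.8 TPM. UNx animal 3 of that table held 2.02 TPM of Rhob, a small GTPase, where the others held 0.84 to 0.94 TPM. In CCD at 72 h, sham animal 1 held 230 TPM of Jund, where the others held 412 to 428 TPM. UNx animal 2 of that table held 9.63 TPM of Klf2, where the others held 3.21 to 3.95 TPM.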

How the results depend on the processing

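No change of a member crossed from a call in one direction to the other under any alternative. In CCD at 24 h the single call (Zfp36l1) was kept in 8 of 10 alternatives other than leaving out each animal. The replicate block, where it was lost, was fitted without sham animal 4. Members called were 0 when genes with TPM above 0 in at least 3 animals were tested, where 1 of 26538 genes was called. With animal as a random effect they were 3, where 485 of 13775 genes were called, against 136 in the main fit. In that setting 12 members were lower at an unadjusted p under 0.05 (11.8% of genes). Leaving out each animal gave 0 to 2 member calls, with 7 to 78 genes called. It gave 4 to 18 lower members (5.8% to 10.3% of genes, median change -0.65 to -0.18). In CCD at 72 h, leaving out each animal gave 9 to 25 lower members (1.28% to 8.12% of genes, median -1.10 to -0.68) and 0 calls. In PT-S1 at 24 h, 7 members were called with arrayWeights, which called 1426 genes, and 2 at 72 h, with 1346 genes. Another scaling moved the all-gene median of PT-S1 by over 0.1, from -0.19 to -0.00 at 24 h and from -0.29 to 0.02 at 72 h with median-ratio scaling. Lower members of PT-S1 at 24 h were then 4 with median-ratio scaling (6% of genes) and 2 with quantile normalization (5.74% of genes, median -0.0228), with 14 and 13 of 26 changes below 0. Those at 72 h were 2 and 4 (5.59% and 8.33% of genes). Without low-correlation libraries they were 11 at 24 h (23% of genes) and 2 at 72 h (8.1%). The median at 24 h was -0.45 when only genes averaging 5 TPM or more were kept. Leaving out each animal gave 4 to 10 lower members at 24 h (5.61% to 21.5% of genes, median -0.34 to -0.0727) and 2 to 13 at 72 h (8.95% to 26.2% of genes, median -0.59 to -0.40), with 0 calls at either time. Causes of these differences were not tested.

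No pairing by replicate number was seen: same-numbered animals correlated by -0.37 to 0.33 over the tables, and 1 of 3, 2 of 5, 0 of 3 and 1 of 4 matched best. With so few animals this cannot exclude a pairing. With the number as a replicate block, PT-S1 at 24 h gave 11 lower members and 0 calls (9.74% of genes lower), and PT-S1 at 72 h 12 and 0 (14.7%). CCD at 24 h gave 4 and 0 (7.88%), and CCD at 72 h 22 and 0 (2.86%). The block used only numbers found in both groups. At 24 h it therefore left out UNx animal 4 of PT-S1 and sham animal 4 of CCD.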
